A study of Gallus gallus with 6 samples.

Results

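The DNA repair and Fanconi genes of the feather papilla ectoderm are described here through 1 feather cycle. They were taken by symbol as all FANCA to FANCM names, RAD50 to RAD59 names, XRCC1 to XRCC6, the MSH and MLH mismatch repair names, BRCA1, BRCA2, BLM, WRN, ATM, ATR, ERCC1 to ERCC8 and PARP1 to PARP3. This gave 46 of the 23724 genes in the file. FANCD2OS, a neighbour of FANCD2 on the opposite strand, and RAD54L2, a helicase known in mammals for binding the androgen receptor, match these names. They are not counted as repair factors here. The other 44 members are.

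The papilla ectoderm is the epidermal sheet on the dermal papilla at the base of the follicle, and it holds the progenitor cells of the next feather. It was peeled from contour feather follicles of White leghorn chicken, with no treatment, in the early growth phase (3 weeks of regeneration), the late growth phase (7 weeks) and the resting phase (10 weeks). Bulk RNA-seq gave 2 libraries per phase and 6 in all, and the labels give them the same batch. The sources do not say if a phase was sampled from 1 bird or from several, so p values measure the spread between these libraries, which may be technical.

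Cells repair DNA by several routes. The Fanconi pathway removes crosslinks between the strands: a core complex with the ubiquitin ligase FANCL marks the FANCD2 and FANCI pair, which then recruits nucleases. Homologous recombination copies the sister chromatid, with BRCA1 and BRCA2 among its factors. End joining seals broken ends without a template, mismatch repair corrects replication errors, nucleotide excision repair cuts out bulky lesions, and PARP1 senses strand breaks. In human cells many of the recombination and Fanconi genes are transcribed mainly as cells enter S phase, whereas excision and end joining factors are present through the cycle.

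Levels are TPM, a share of all transcripts that corrects for transcript length and for the size of the library but keeps no read depth. Changes are log2 fold changes of TPM + 1, so they understate the change of genes at low TPM. Each is given with its standard error (SE) and the p value of limma, adjusted by Benjamini-Hochberg over the 13063 genes with a mean above 1 TPM. "Rose" and "fell" mean an adjusted p under 0.05. Pairs of TPM joined by "then" run from early growth through late growth to rest, with replicate 1 before replicate 2. Of the 46 members 44 passed the filter. RAD51AP2 was listed at 0 in all 6 libraries, and FANCD2OS was at most 0.231 TPM.

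The step from late growth to rest held most of the falls of these genes. There 19 of 44 fell (43.2%) and 3 rose (6.82%), against 23.1% and 24.7% of all tested genes. Their median log2 fold change was −0.60, and that of all tested genes was 0.02. In bulk tissue, fewer cells of a type and less RNA per cell cannot be told apart. All 19 falls were also called after median-of-ratios scaling, after quantile normalization, and after TPM were rescaled without smooth muscle and red cell genes. That rescaling took out only the 10 smooth muscle and 9 red cell genes of the marker lists. Other transcripts of those cells stayed in, so it cannot show the part of cell composition. Without 1 library at a time, 16 to 24 fell. XRCC5 lost its call without either late growth library, FANCG without either of these or resting replicate 1, and RAD54B without any late growth or resting library. The number that rose depended on the early growth libraries, which only feed the shared estimate of the spread: it was 6 without early growth replicate 1 and 7 without replicate 2.

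From early to late growth the members moved much as the other genes did. Of 44, 13 fell (29.5%) and 0 rose, against 28.4% and 5.24% of all tested genes. Their median was −0.40, and that of all tested genes −0.31. Of the 10 Fanconi complex genes 6 fell (60%) and 0 rose, with a median of −0.85. In homologous recombination 2 of 12 fell (16.7%), and in nucleotide excision repair 0 of 5 did. At an unadjusted p under 0.05, 1 member rose. With median-of-ratios scaling, which moved the median of all genes to −0.01, 7 fell and 3 rose. With quantile normalization, which moved it to 0.04, 5 fell and 1 rose. ATM, FANCD2, FANCE, FANCI and PARP3 fell under both. The calls at this step were lost without late growth replicate 1, and all but FANCI and PARP3 without replicate 2. The member medians were then −0.33 and −0.49. Over all tested genes the median SD of the log2 level within a phase was 0.20 in early growth, 0.11 in late growth and 0.12 at rest. Each gene has a single spread in the fit. Whether the losses come from that spread or from the late growth values was not tested.

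**Figure D1:**
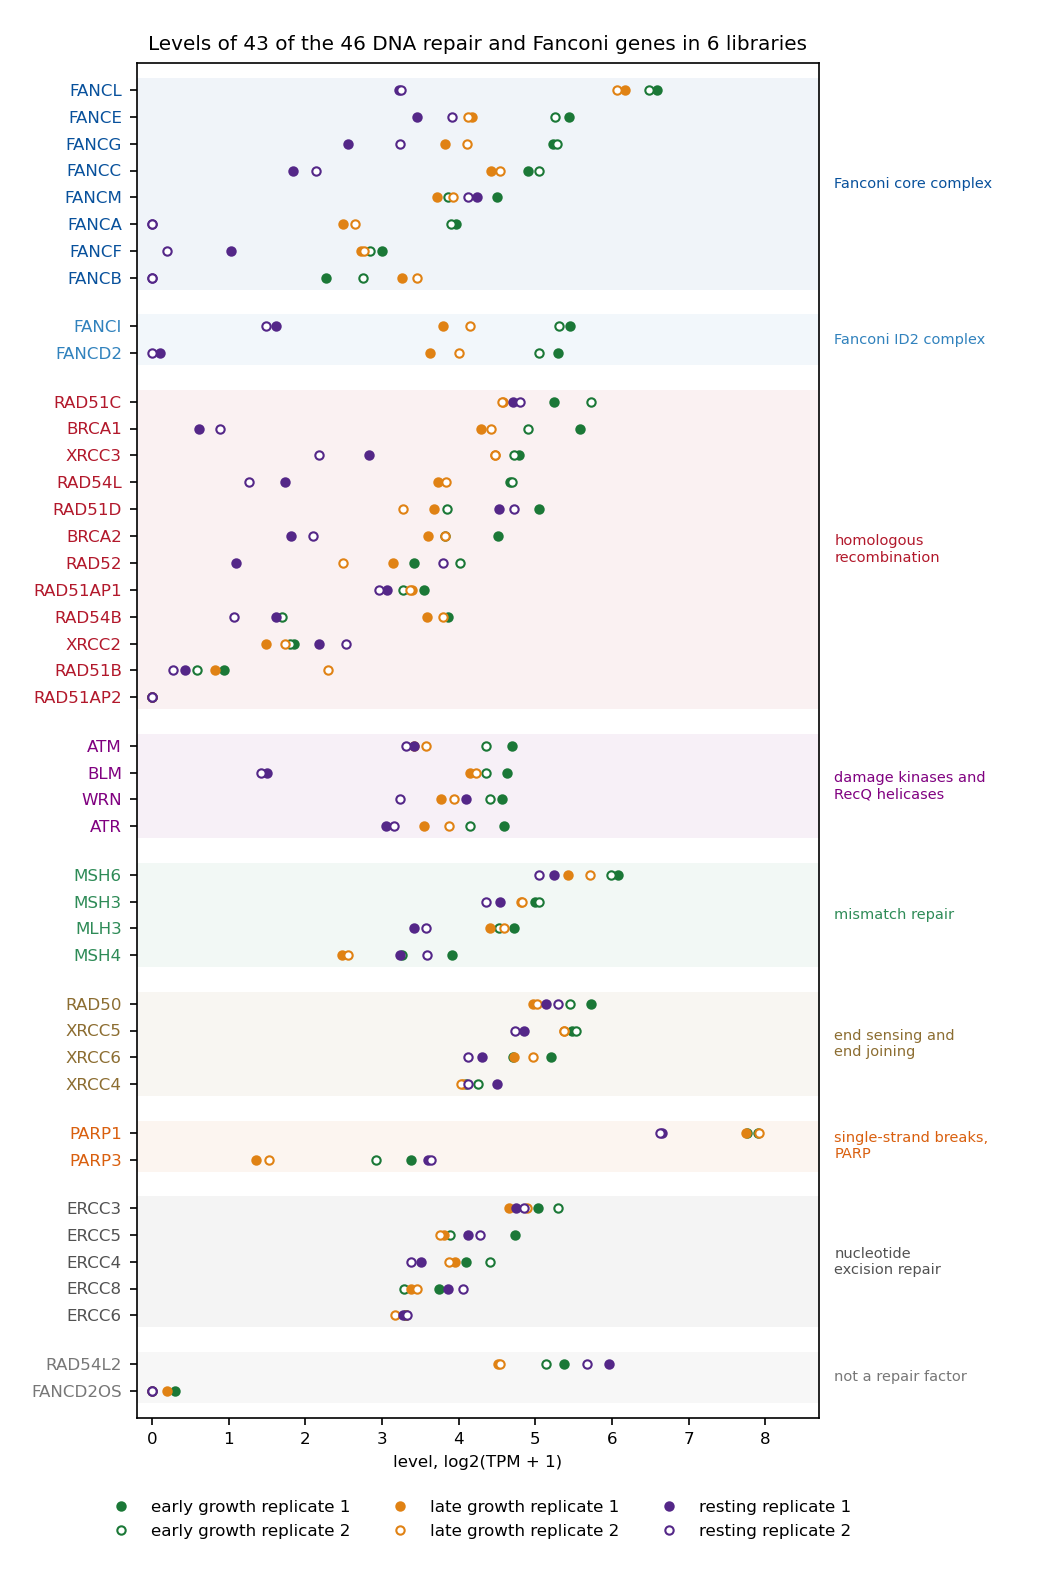
Level of 43 of the 46 members in each of the 6 libraries, as log2(TPM + 1), grouped by role (filled points, replicate 1, open points, replicate 2). FANCA and FANCB were listed at 0 in both resting libraries, while ERCC6 stayed between 8.01 and 9.05 TPM in all libraries.

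Of the 8 core complex genes, 6 fell from late growth to rest (75%), against 23.1% of all tested genes. FANCL, the ligase, was the second most abundant member in early growth. It stood at 95.1 and 88.7 TPM in early growth, 70.9 and 66.0 in late growth, then 8.37 and 8.53 at rest. The phases did not overlap, and the fall to rest was 8.10-fold (log2 fold change −2.88, SE 0.12, adjusted p = 1.8e-05). Its change from early to late growth (−0.42, SE 0.12, adjusted p = 0.036) was close to the median of all genes. That call was lost under median-of-ratios scaling, quantile normalization and the replicate number as a block. It was also lost without early growth replicate 1 and without any 1 late growth or resting library.

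FANCA and FANCG are partners in 1 arm of the core complex. FANCA read 14.6 and 13.9 TPM, then 4.61 and 5.25 in late growth, and was listed at 0 in both resting libraries. It fell at both steps (−1.37, SE 0.25, adjusted p = 0.01, then −2.57, SE 0.25, adjusted p = 0.00049). FANCG was at 36.7 and 38.1, then 13.2 and 16.3, then 4.89 and 8.39 TPM. It also fell at both steps (−1.29, SE 0.26, adjusted p = 0.014, and −1.07, SE 0.26, adjusted p = 0.017).

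FANCB, the partner that holds FANCL in the core complex, ran differently. It was at 3.81 and 5.77 TPM, then 8.56 and 9.998 in late growth, and was listed at 0 in both resting libraries. Late growth lay above early growth in both libraries without passing the test (0.85, SE 0.30, adjusted p = 0.078), and the fall to rest was −3.36 (SE 0.30, adjusted p = 0.00033). The first difference did pass under both other scalings. No fold is given for FANCA and FANCB against rest, since a gene listed at 0 has no known floor here.

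FANCC, FANCE and FANCF form another arm of the complex. FANCC was at 29.1 and 32.0, then 20.5 and 22.2, then 2.58 and 3.41 TPM, a 7.13-fold fall to rest (−2.49, SE 0.19, adjusted p = 0.00019). FANCF, low throughout, went from 5.65 and 5.78 TPM in late growth to 1.05 and 0.143 at rest (−2.13, SE 0.35, adjusted p = 0.0038). FANCE, which contacts FANCD2, fell at the other step, and its fall to rest was called only under quantile normalization. It was at 42.6 and 37.4 TPM in early growth, 17.0 and 16.4 in late growth (−1.21, SE 0.20, adjusted p = 0.0071) and 9.94 and 14.0 at rest (−0.47, SE 0.20, adjusted p = 0.1).

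FANCM, the translocase that anchors the core complex on DNA, was the member of the complex with no call. Its libraries read 21.6 and 13.6, then 12.1 and 14.2, then 17.9 and 16.5 TPM, with rest inside the range of early growth. The difference between rest and late growth was 0.36 (SE 0.25, adjusted p = 0.28).

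The 2 substrates of the core complex fell at both steps. FANCD2 was at 38.4 and 32.1 TPM in early growth, 11.4 and 15.1 in late growth, then 0.0743 and 0 at rest. Its change to rest (−3.77, SE 0.25, adjusted p = 1e-04) was the largest among the 44 tested members on this scale. FANCI was at 42.8 and 38.8, then 12.9 and 16.7, then 2.08 and 1.79 TPM, which is 2.76-fold lower in late than in early growth (−1.41, SE 0.21, adjusted p = 0.0049) and 7.64-fold lower at rest than in late growth (−2.42, SE 0.21, adjusted p = 0.00028). FANCI kept a low level at rest where FANCD2 was at or near 0. Summed over the 10 Fanconi complex genes, TPM was 332 and 307, then 177 and 188, then 46.9 and 52.8.

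**Figure D2:**
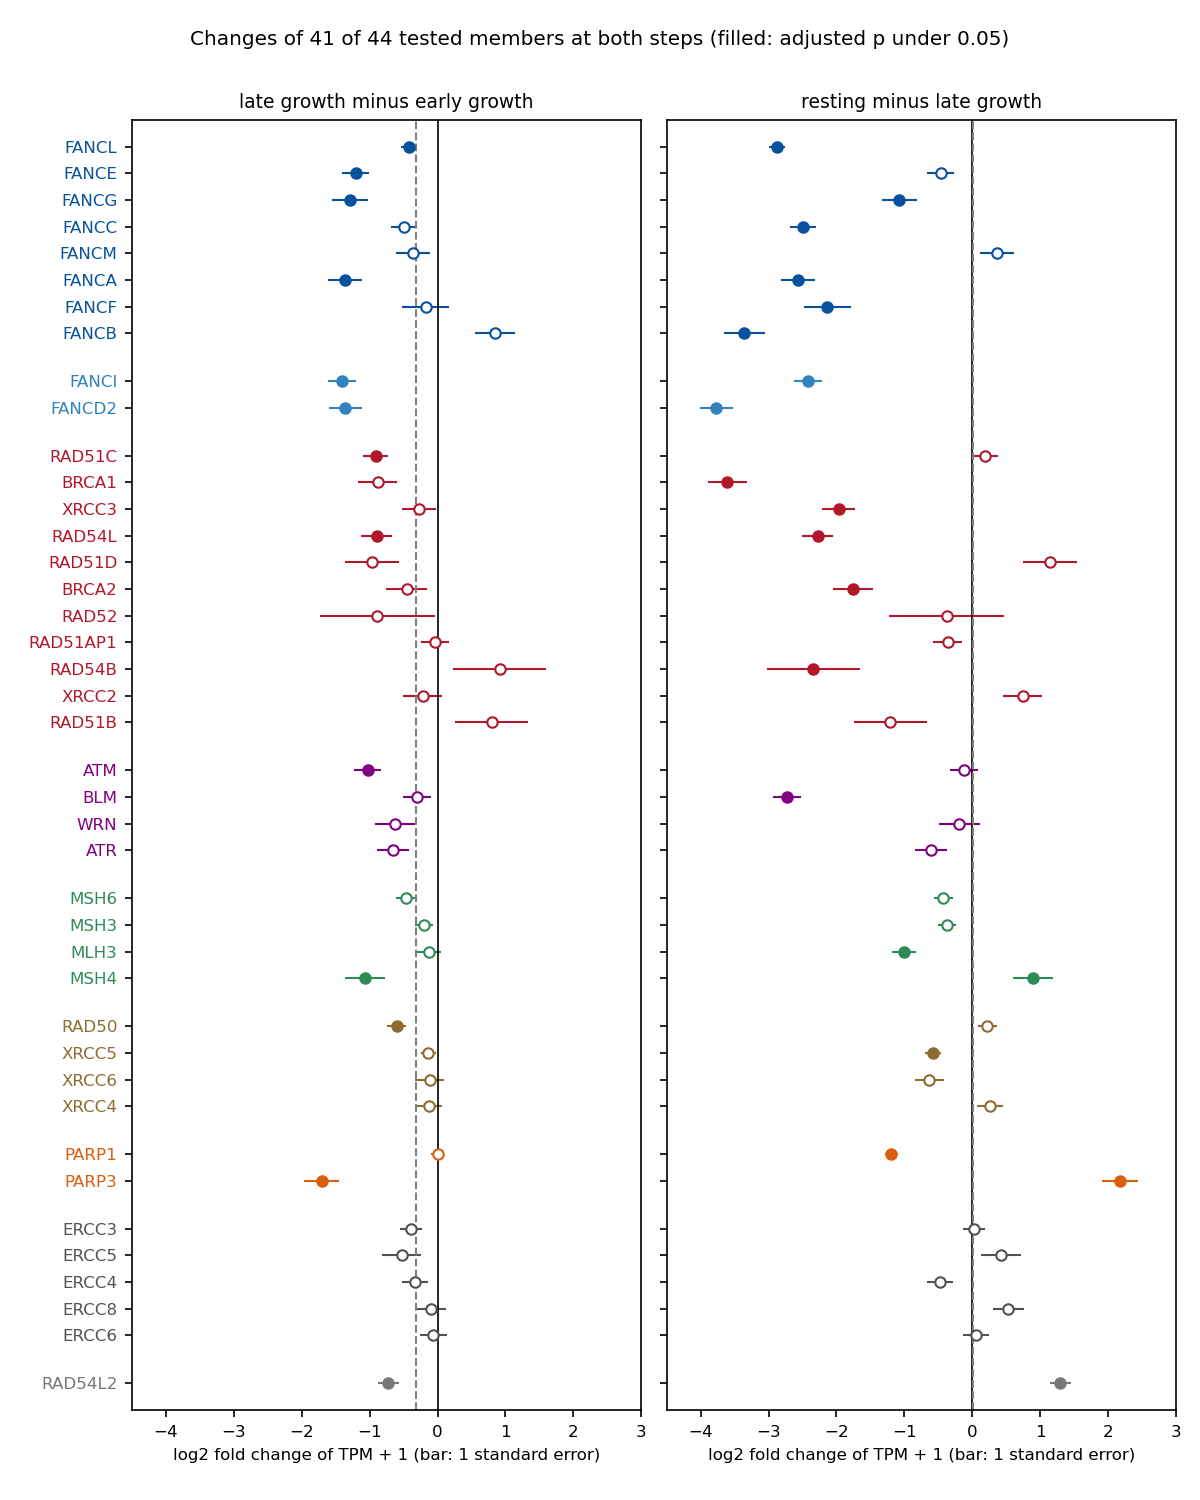
Log2 fold change of TPM + 1 of 41 of the 44 tested members at each step, with a bar of 1 standard error on each side. Filled points have an adjusted p under 0.05, the solid line is 0, and the dashed line is the median of all tested genes, −0.31 on the left and 0.02 on the right.

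In homologous recombination, 6 of 12 tested genes fell to rest (50%) and 0 rose in the limma fit, against 23.1% and 24.7% of all tested genes. At an unadjusted p under 0.05, 2 of the 12 rose. BRCA1, which promotes the resection of broken ends, was at 46.8 and 28.8 TPM in early growth, 18.5 and 20.5 in late growth, then 0.531 and 0.845 at rest. The last step was a 28.4-fold fall (−3.61, SE 0.28, adjusted p = 2e-04). BRCA2 went from 11.1 and 13.2 TPM in late growth to 2.51 and 3.30 at rest (−1.76, SE 0.30, adjusted p = 0.0042).

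RAD54L and RAD54B are motor proteins that remodel DNA during recombination. RAD54L was at 24.4 and 24.8, then 12.3 and 13.3, then 2.33 and 1.41 TPM and fell at both steps (−0.90, SE 0.23, adjusted p = 0.031, and −2.28, SE 0.23, adjusted p = 0.00057). RAD54B was at 13.6 and 2.24, then 11.002 and 12.9, then 2.08 and 1.11 TPM (−2.34 to rest, SE 0.69, adjusted p = 0.033). Its early growth libraries stood far apart, and replicate 2 of that phase listed 814 of the tested genes at 0, against 124 in replicate 1. Whether this bears on RAD54B was not tested.

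The accessory recombination genes XRCC2, XRCC3, RAD51B, RAD51C and RAD51D, whose proteins form complexes with each other, did not move as 1 set. XRCC3 went from 21.3 and 21.3 TPM in late growth to 6.14 and 3.54 at rest (−1.97, SE 0.25, adjusted p = 0.0013). RAD51C, its direct partner, was at 37.0 and 52.0, then 23.0 and 22.6, then 25.3 and 27.0 TPM. It fell from early to late growth (−0.91, SE 0.18, adjusted p = 0.014), and its difference between rest and late growth was 0.19 (SE 0.18, adjusted p = 0.44). RAD51D was at 32.0 and 13.4, then 11.8 and 8.66, then 22.05 and 25.4 TPM, with rest above both late growth libraries, short of the threshold (1.15, SE 0.40, adjusted p = 0.056). It passed as a rise under both other scalings, after the rescaling without smooth muscle and red cell genes, with the replicate number as a block, and without either early growth library. XRCC2 was between 1.80 and 2.63 TPM in growth and at 3.53 and 4.77 at rest (0.74, SE 0.29, adjusted p = 0.079). It was called as a rise to rest in the fit of only late growth and rest. RAD51B was under 1 TPM in 5 of 6 libraries.

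RAD52, which anneals single strands, read 1.14 TPM in 1 resting library and 12.9 in the other, so its change to rest carried an SE of 0.85. RAD51AP1, a cofactor of recombination, was between 6.76 and 10.7 TPM in all libraries.

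Among the damage kinases and RecQ helicases, only BLM was called between late growth and rest in the fit of all 6 libraries without further scaling. BLM, which dissolves recombination intermediates, was at 23.8 and 19.5, then 16.8 and 17.7, then 1.82 and 1.69 TPM, a 9.83-fold fall to rest (−2.73, SE 0.21, adjusted p = 0.00017). WRN, the helicase of Werner syndrome, was at 12.7 and 14.4 TPM in late growth and 16.1 and 8.45 at rest (−0.19, SE 0.30, adjusted p = 0.64).

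ATM, the kinase that responds to double-strand breaks, was at 24.8 and 19.4 TPM in early growth, 9.66 and 10.9 in late growth, then 9.73 and 8.94 at rest. It fell early (−1.03, SE 0.20, adjusted p = 0.012), and late growth and rest overlapped. ATR, which responds to stalled forks, was at 23.2 and 16.7, then 10.7 and 13.6, then 7.27 and 7.90 TPM. Neither step was called (−0.66, SE 0.24, adjusted p = 0.079, and −0.61, SE 0.24, adjusted p = 0.077), but the fall to rest was called under both other scalings, in the fit of only these phases and without either early growth library. Rest was below early growth (−1.27, SE 0.24, adjusted p = 0.0059).

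Of the 6 mismatch repair genes, 2 fell to rest (33.3%) and 1 rose (16.7%), against 23.1% and 24.7% of all tested genes. MLH3, of the meiotic and mismatch MutL pair, fell by 1.01 on the log2 scale (SE 0.17, adjusted p = 0.0047). MSH6, which recognises mismatches, was at 66.8 and 62.5, then 42.0 and 51.4, then 36.9 and 32.0 TPM. Neither step was called (−0.47, SE 0.14, adjusted p = 0.052, and −0.42, SE 0.14, adjusted p = 0.053), and the fall to rest was called under both other scalings and with a filter at a mean of 5 TPM. MSH3, which recognises small loops, had a lower mean at rest than in late growth without a call (−0.37). MSH4, known for its role in meiotic crossing over, ran the other way: 14.0 and 8.60, then 4.58 and 4.91, then 8.41 and 11.1 TPM. It fell (−1.06, SE 0.29, adjusted p = 0.036) and then rose (0.89, SE 0.29, adjusted p = 0.047). The fall was lost under both other scalings, without a filter, in the fit of only these phases, with the replicate number as a block, and without any 1 library other than early growth replicate 2. The rise was lost under quantile normalization, without a filter and without any 1 of the late growth or resting libraries, and with the replicate number as a block.

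Of the 4 end sensing and end joining genes, XRCC5 (Ku80) was called at rest, from 40.4 and 40.5 TPM to 27.8 and 25.7 (1.51-fold, −0.58, SE 0.11, adjusted p = 0.0078). Its partner XRCC6 (Ku70) had a change of like size with a wider error (−0.63, SE 0.21, adjusted p = 0.052). XRCC6 was called lower under both other scalings, with a filter at a mean of 5 TPM, in the fit of only these phases and without either early growth library. XRCC4, the scaffold of the ligase, was between 15.4 and 21.7 TPM in all libraries. RAD50, which tethers DNA ends, was at 51.8 and 43.0 TPM in early growth, 30.3 and 31.4 in late growth (−0.60, SE 0.14, adjusted p = 0.022) and 34.3 and 38.1 at rest (0.22, SE 0.14, adjusted p = 0.24).

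PARP1 was the most abundant member in all phases. Its libraries read 238 and 216, then 214 and 241, then 99.2 and 98.2 TPM. The growth phases overlapped, although median-of-ratios scaling called a rise, and rest was 2.30-fold below late growth (−1.19, SE 0.09, adjusted p = 0.00019). PARP3, which acts at double-strand breaks, was at 9.44 and 6.62, then 1.57 and 1.89, then 11.2 and 11.5 TPM. It fell (−1.71, SE 0.26, adjusted p = 0.0055) and then rose 6.54-fold (2.18, SE 0.26, adjusted p = 0.0011), and the difference between rest and early growth was 0.47 (SE 0.26, adjusted p = 0.18). That difference was called as a rise under both other scalings and without early growth replicate 1.

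None of the 5 nucleotide excision genes was called at either of these steps, against the 23.1% of all tested genes that fell and 24.7% that rose to rest. At rest against late growth ERCC3, the XPB helicase, differed by 0.03 (SE 0.16), ERCC6, the CSB protein of transcription-coupled repair, by 0.06 (SE 0.20) and ERCC8, its partner CSA, by 0.53 (SE 0.23). The nucleases ERCC4 (XPF) and ERCC5 (XPG) differed by −0.47 (SE 0.19) and 0.42 (SE 0.29). Adjusted p ran from 0.087 to 0.91. ERCC6 was between 8.01 and 9.05 TPM in the 6 libraries. At an unadjusted p under 0.05, 0 of the 5 passed within growth, and 1, ERCC4, passed at rest. From early growth to rest ERCC4 fell (−0.81, SE 0.19, adjusted p = 0.015 in limma), and the other 4 had no call. Under both other scalings that fall of ERCC4 was lost, and ERCC8 was called higher at rest than in early growth. Against late growth, ERCC4 was called lower and ERCC8 higher at rest in the fit of only these phases and without either early growth library. Without early growth replicate 2, ERCC5 was called higher at rest than in late growth too.

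RAD54L2, not counted as a repair factor here, was at 40.4 and 34.2, then 21.8 and 22.3, then 61.5 and 50.1 TPM. It fell (−0.73, SE 0.15, adjusted p = 0.016) and then rose 2.53-fold (1.29, SE 0.15, adjusted p = 0.001), which made it the second most abundant member at rest.

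**Figure D3:**
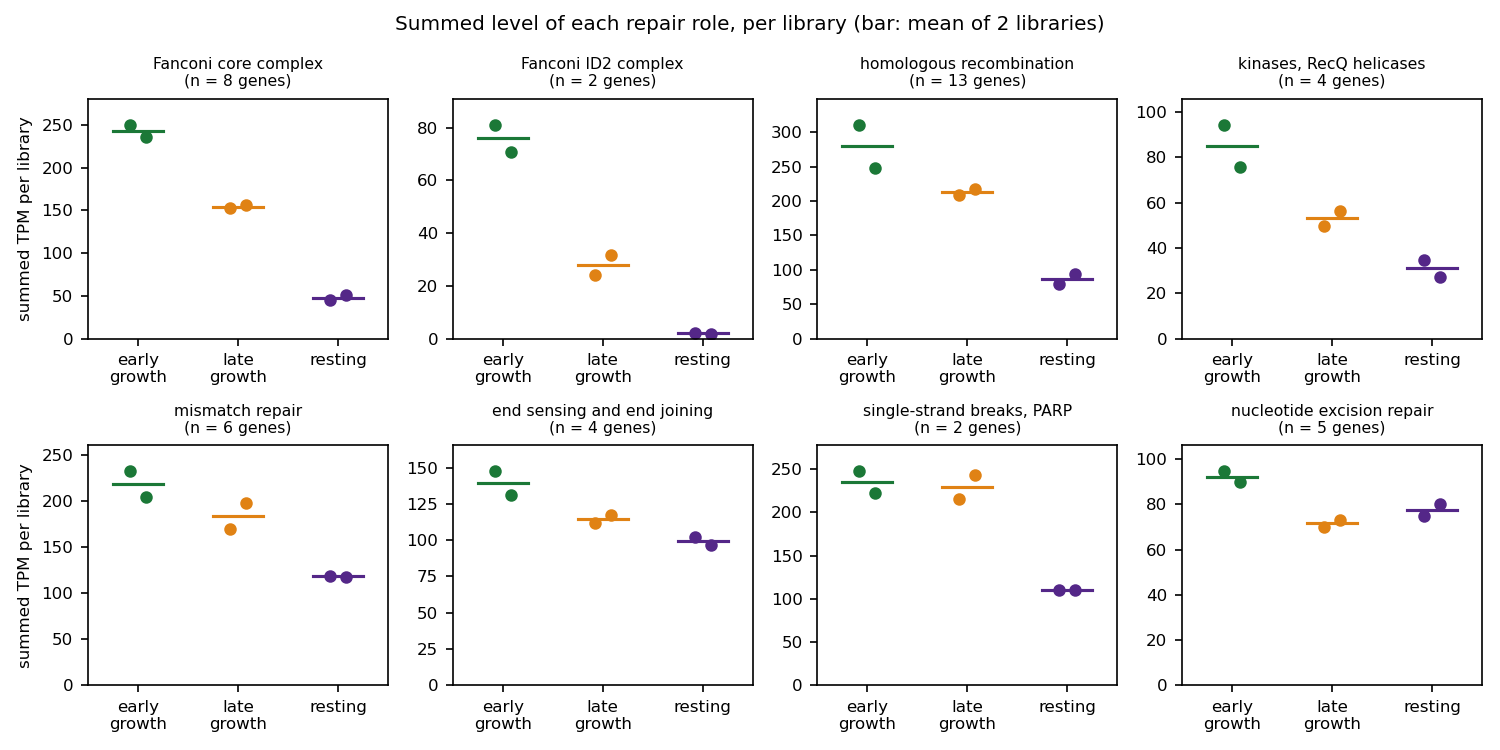
Summed TPM of the members of each role in each library, with a bar at the mean of the 2 libraries of a phase. The core complex falls to 44.8 and 51.0 TPM at rest from 153 and 156 in late growth, whereas nucleotide excision repair reads 75.0 and 80.3 at rest and 70.2 and 73.0 in late growth.

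The repair members were also split by what is known from human cells. The 14 genes known to peak in S phase included BRCA1, BRCA2, BLM, RAD51AP1, RAD54L, RAD54B, FANCA, FANCB, FANCD2, FANCI, MSH6 and XRCC2. From late growth to rest 11 of them fell and 0 rose (1 rose at an unadjusted p under 0.05), with a median of −2.38. Of the other 29 tested repair members 8 fell (27.6%) and 2 rose (6.90%), with a median of −0.37. That share of falls was near the 23.1% of all tested genes, but the share of rises was below their 24.7%. The median of all tested genes was 0.02. The 8 included FANCL and FANCC, so the Fanconi genes lay on both sides of the split. Of the same 29 members, 10 fell under median-of-ratios scaling and 13 under quantile normalization. Their medians were then −0.40 and −0.61, and those of all tested genes 0.005 and −0.12. From early to late growth the groups were alike in their counts, 4 of 14 (28.6%) and 8 of 29 (27.6%), near the 28.4% of all tested genes, and in their medians, −0.38 and −0.39. Over all settings other than the stricter thresholds 10 to 13 of the S-phase genes fell to rest. In the fit of only late growth and rest, 1 of the S-phase genes, XRCC2, was called as a rise. No test of the split was made. The list was chosen with earlier results of these data known, so the difference between the groups is a description only.

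Partner genes outside the member names were followed as 7 lists with 107 tested genes. From late growth to rest 47 fell (43.9%) and 7 rose (6.54%), with a median of −0.50, against 23.1% and 24.7% of all tested genes. From early to late growth 29 fell (27.1%) and 1 rose, with a median of −0.38, and that share of falls was near the 28.4% of all tested genes. Fewer of them fell at either step when a late growth library was left out. The share of all tested genes in those fits is not given here. The nuclease EXO1 was at 15.0 and 23.9 TPM in late growth and the nuclease DNA2 at 15.0 and 14.8, and both were listed at 0 in the resting libraries. BARD1, which forms the ligase with BRCA1, fell to rest (−2.93, SE 0.35, adjusted p = 0.0011). POLQ, the polymerase of microhomology end joining, fell at both steps (−1.43 and −2.02).

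The enzymes around FANCD2 were looked up after their values were seen. UBE2T, the conjugating enzyme that FANCL uses, was at 99.0 and 108, then 59.2 and 56.3, then 19.4 and 18.0 TPM, and fell at both steps (−0.83, SE 0.11, adjusted p = 0.0036, and −1.58, SE 0.11, adjusted p = 0.00013). USP1, which takes the ubiquitin off, fell at both steps too (−0.62, SE 0.12, and −1.06, SE 0.12), while its cofactor WDR48 rose from early to late growth (0.91, SE 0.21, adjusted p = 0.021). NBN, which binds RAD50 and MRE11, fell to rest (−2.03, SE 0.38, adjusted p = 0.0062). MRE11 differed by −0.12 (SE 0.20) at that step.

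In damage signalling 7 of 17 fell to rest (41.2%) and 1 rose, against 23.1% and 24.7% of all tested genes. CHEK1, the kinase below ATR, went from 50.8 and 47.2 TPM to 14.6 and 12.4 (−1.79, SE 0.13, adjusted p = 0.00013), and its adaptor CLSPN from 6.59 and 9.74 TPM to 0 and 0.469 (−2.90, SE 0.35). TIMELESS, of the fork protection complex, fell within growth (−1.14) and then rose (0.74, SE 0.12, adjusted p = 0.0033).

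The counts of the other lists at the step to rest stand beside 23.1% of all tested genes that fell and 24.7% that rose. Of 20 base excision and direct reversal genes 7 fell (35%), with NEIL3 (−2.82) and the uracil glycosylase UNG (−1.96) ahead, and 3 rose, with the demethylase ALKBH3 (1.41) ahead. Of 15 mismatch and excision partners 6 fell (40%), among them the ligase LIG1 (−2.60) and the damage binder XPA (−2.42), and 2 rose, among them the lesion sensor XPC (0.98). Lesion bypass had 2 falls of 8 (25%), RAD18 (−1.38) and POLH (−0.60), which is about the share of all genes. End joining partners had 0 calls of 7 at rest, and 1 fell and 1 rose at an unadjusted p under 0.05. The 13 factors shared with replication had 11 falls (84.6%), with POLE (−2.46), FEN1 (−2.18) and the sliding clamp PCNA (−1.93) ahead.

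The cell division lists were called in full. All 15 tested genes of the MCM and replication list fell from late growth to rest, with a median of −3.24, and all 18 of the mitosis list did, with a median of −4.23. RRM2, of ribonucleotide reductase, went from 183 and 195 TPM to 5.66 and 2.25, and the kinase PLK1 from 63.8 and 70.3 to 0.815 and 0.595. The calls to rest held for all genes of these lists under median-of-ratios scaling, quantile normalization and the rescaling without smooth muscle and red cell genes. Within growth 5 of 15 (33.3%) and 7 of 18 (38.9%) fell, with medians of −0.46 and −0.64. Of all tested genes 28.4% fell within growth, with a median of −0.31. The S-phase members, at −2.38, lay between the other members and these lists at the step to rest. Changes of TPM + 1 understate falls of genes at low TPM, and with a pseudocount of 0.1 the S-phase median was −2.88. The part of level in this order was not tested.

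**Figure D4:**
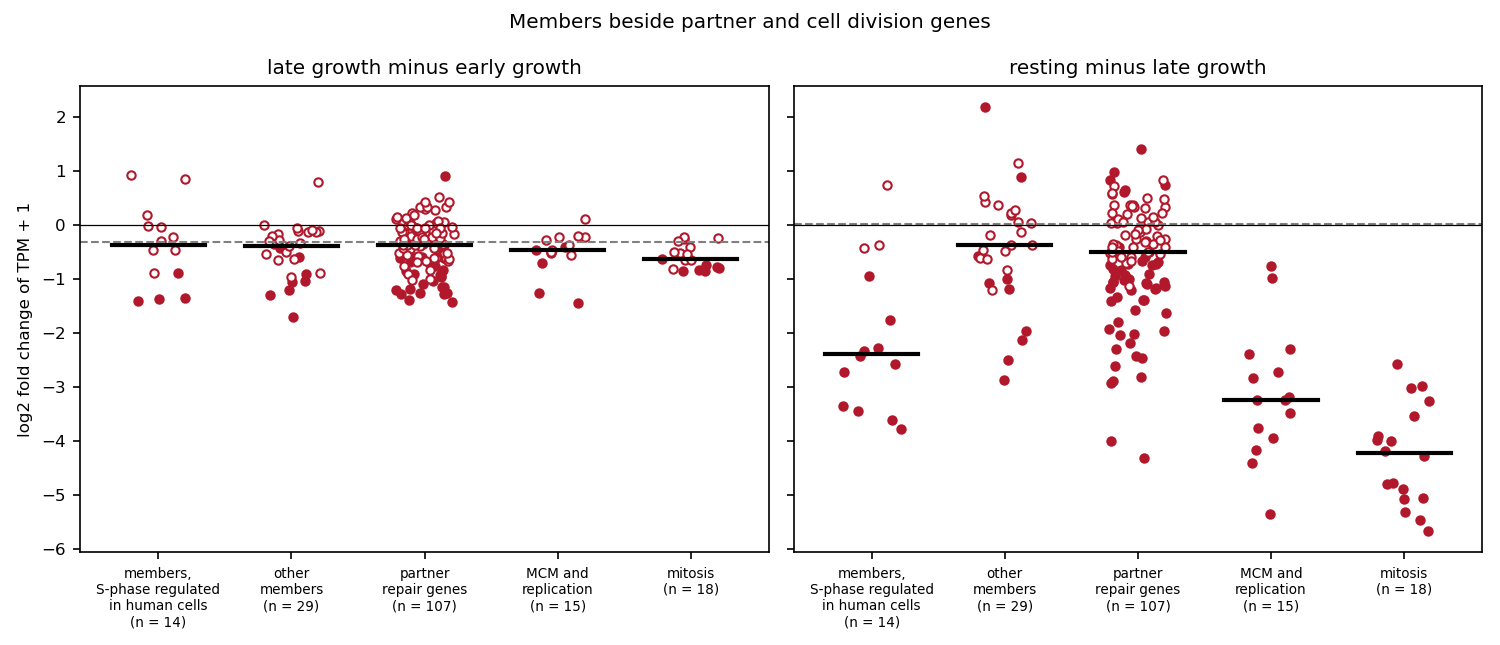
Log2 fold change of TPM + 1 of the members, the partner repair genes and the cell division genes at each step. Each point is a gene, filled where the adjusted p is under 0.05, the thick bar is the median of the list, and the dashed line is the median of all tested genes. On the right the medians run from −0.37 for the other members through −2.38 for the S-phase members to −4.23 for the mitosis list.

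Rest against early growth uses the same libraries as the comparisons above, so its values stand beside theirs and add no separate evidence. Of 44 members 27 fell (61.4%) and 1 rose, RAD54L2 (2.27%), against 34.0% and 15.8% of all tested genes. The median was −1.05, and that of all genes −0.27. RAD54L2 lost this call without early growth replicate 2, without either late growth library and without resting replicate 1. By calls at the consecutive steps, 6 members fell at both, 13 only at the step to rest, 4 only within growth (FANCE, ATM, RAD51C and RAD50), 3 fell and then rose (PARP3, MSH4 and RAD54L2), and 18 had no call. Of the 6 that fell at both, only FANCD2 and FANCI kept both falls under both other scalings. Summed over the members, TPM was 1501 and 1312, then 1024 and 1115, then 629 and 628.

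Markers of other cells moved with the phases. Of the markers of the labelled epidermal cells, the keratin KRT5 was between 2959 and 5387 TPM and KRT14 between 2290 and 4470, and the basal keratinocyte list held between 0.920% and 1.28% of TPM. Its genes were not steady. Within growth 7 of 10 fell and 1 rose, the epidermal regulator TP63, and to rest 6 of 10 fell and 2 rose. KRT5 and KRT14 fell at both steps, and TP63 (−1.17), the integrin ITGA6 (−1.11) and the adhesion genes CDH1 (−1.09) and EPCAM (−1.48) fell to rest, while the keratin KRT15 (3.25) and the hemidesmosome collagen COL17A1 (2.13) rose. What part this has in the members' changes was not tested. The smooth muscle list took 0.262% and 0.202%, then 0.0331% and 0.0354%, then 4.43% and 4.52% at rest, and 10 of 10 genes fell and then 10 of 10 rose. The red cell list took 0.0896% to 0.147% in growth and 3.55% and 3.58% at rest, where 8 of 9 rose. The globin HBBA instead fell within growth (−0.64, SE 0.10, adjusted p = 0.0058) and to rest (−0.37, SE 0.10, adjusted p = 0.025). HBZ, HBE1 and HEMGN were listed at 0 in all growth libraries. The fibroblast and dermal papilla list was at 0.235% and 0.233%, then 0.0348% and 0.0352%, then 0.252% and 0.255%, with 10 of 10 falls and then 10 of 10 rises. Endothelium ran from 0.0283% to 0.0302% in early growth, 0.0023% to 0.0031% in late growth and 0.0158% to 0.0160% at rest, and leukocytes from 0.0505% to 0.0543%, 0.0073% to 0.0075% and 0.0875% to 0.0955%. To rest 7 of 9 and 8 of 8 of their genes rose. After the listed smooth muscle and red cell genes were taken out and TPM rescaled, 19 members fell to rest and 4 rose. Other transcripts of those cells were left in. The part of these cells in the levels of PARP3, MSH4 and RAD54L2, which were low in late growth and high in the other phases as the fibroblast list was, was not tested.

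According to the GRCg7b annotation 14 of the 46 members overlap a protein-coding gene. These are BRCA2, FANCA, FANCD2, FANCI, FANCL, FANCM, MSH6, PARP3, RAD51AP1, RAD51C, RAD52, RAD54B, XRCC2 and XRCC5. The kit marked no strand, so reads from a stretch that both genes share cannot be told apart by strand. The overlap is of whole gene spans, introns included, in a build other than that of the files. Whether exons are shared was not tested.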

How the data were processed

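Papilla ectoderm of 3 feather phases was measured by bulk RNA-seq, 2 libraries each. The paper's methods describe TruSeq libraries read once from a single end, and StringTie at default parameters (version not given) computed abundance on GRCg6a. The sources used here name no aligner. Genes carry symbols or LOC numbers, although the methods name an Ensembl annotation. The TPM values deposited by the authors, 1 column per library, were used unchanged. The library sums were between 989472 and 998451 TPM, and 11691 to 13334 genes were above 1 TPM. TPM keeps no depth, so precision can be judged only from the spread between replicates. In the fit each gene has a single estimate of that spread over the 3 phases, drawn in part from the other genes. The early growth libraries differed most from each other, which a single estimate does not reflect. 21 identifiers that are duplicated or look like dates belong to no list.

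Values were log2(TPM + 1). Genes above a mean of 1 TPM, 13063 in number, entered limma 3.58.1 in R 4.3.3 in a single model with a mean for each phase, all 6 libraries and a variance trend (prior degrees of freedom 3.01). Calls need an adjusted p under 0.05 (Benjamini-Hochberg). The smallest exact two-sided permutation p for 2 against 2 libraries is 0.333, so a call rests on the spread shared over genes. The fit was also run on simulated data with known changes and independent noise for each gene. Its outcome is not given here, and it cannot show if the replicates are technical. All members entered the counts, medians and sums, and 3 of them are not reported singly here. Of the others, full values were given for the 10 largest called changes at each consecutive step, the 3 members with the highest mean, and members listed at 0 in a phase. Partner and division lists were given as counts with up to 3 called genes for each list and step, apart from those named as chosen after their values were seen. The members, roles, lists and markers were chosen with earlier results of these data known. POLD2 was matched by its LOC number.

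The sources do not say if replicate numbers pair the libraries. Deviations of same-numbered libraries correlated at −0.0289, 0.00830 and 0.0149, which cannot show if they shared a bird or a preparation. The alternatives tried were the replicate block, stricter thresholds, robust moderation, a fit of the compared phases alone, each library left out, quantile normalization or median-of-ratios scaling, TPM rescaled after removal of smooth muscle and red cell genes, other pseudocounts (0.1 and 0.5), and other filters (none, or above 5 TPM). All 46 members were found in the RefSeq GRCg7b gene table, used only for names and overlaps since the files use another build.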

Additional observations from a re-analysis of the deposited data

How the results depend on the processing

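From early to late growth the 13 falls became 7 and the 0 rises 3 (FANCB and PARP1 among them) under median-of-ratios scaling, with a member median of −0.068. Under quantile normalization they became 5 and 1, with a median of −0.083. A log2 fold change above 1 left 8 falls, and an adjusted p under 0.01 with a log2 fold change above 2 left 0. Without 1 library at a time 0 to 16 fell and 0 to 1 rose. From late growth to rest the 19 falls and 3 rises became 11 and 1 at the strictest thresholds, and 6 rose in the fit of only these phases. The member median was −0.75 under quantile normalization, and that of all tested genes −0.12. Without 1 library, 16 to 24 fell and 2 to 7 rose. From early growth to rest 14 fell at the strictest thresholds. In that comparison the 1 rise became 3 under both scalings, and 0 in the fit of only these phases and at both stricter thresholds. Its median was −0.73 under median-of-ratios scaling and −0.76 under quantile normalization, and 0 to 4 rose without 1 library. The stricter thresholds and the smaller fits act by their construction, and for the other changes the cause was not tested. The share of all tested genes called under each of these settings is not given here. The member counts under them therefore cannot be set against the background.

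No member changed sign with a call. Under pseudocounts and robust moderation the counts stayed within 1 of those given. With the filter at a mean of 5 TPM, FANCB and FANCF were not tested. The replicate block gave 10 falls from early to late growth, 19 falls and 3 rises to rest, and 26 falls and 1 rise from early growth to rest. The numbers share no pairing, so calls lost under the block are no weaker effects. Depth is unknown, so no limit can be set for members listed at 0. A search of promoters for E2F, CHR and CCAAT letters and its narrower window were not run, since no promoter table was at hand.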
